A study of Mus musculus with 7 samples.

Results

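The clustered histone genes, most of which are replication-dependent, lie side by side in a few chromosomal clusters. They encode the linker histone H1 and the core histones H2A, H2B, H3 and H4. They were chosen by name: every gene symbol that starts with Hist and a digit was taken, which gave 62 of the 21755 symbols on the array. The members were grouped by class, as the symbol gives it, into 5 H1, 16 H2A, 17 H2B, 12 H3 and 12 H4 genes. RefSeq (GRCm38.p6) placed 49 of them, the cluster Hist1, on chromosome 13, the 9 of Hist2 on chromosome 3, the 3 of Hist3 on chromosome 11, and the single Hist4 gene on chromosome 6.

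RNA of mouse Langerhans cells, which are dendritic cells that live in the epidermis, was measured on microarrays. The 3 irradiated samples came from mice that had received 12 Gy, and the 4 control samples from naive mice. All samples were of adult wild-type mice of the strain written C57:Bl6 in the labels, and the cells were sorted by flow cytometry, pooled until a sample held more than 10000 of them, and processed by the ImmGen consortium. The labels give neither the sex of the mice, nor the time between irradiation and sorting, nor whether replicates are separate mice or pools, so p-values reflect only how far these samples varied, and that variation could be technical.

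Histone proteins package DNA, and a dividing cell must make a new set of them while it copies its genome. The replication-dependent genes of the clusters have no introns and are transcribed together in S phase under the coactivator NPAT. Their mRNAs end in a stem-loop bound by SLBP instead of a poly(A) tail. Replacement histones such as H2A.Z and H3.3 are encoded elsewhere, by genes that are also transcribed in cells that do not divide. Langerhans cells divide slowly in the epidermis and renew themselves there.

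The label Langerhans cell was checked against marker genes. Irradiated replicates 2 and 3 had log2 intensities of 12.35 and 11.86 for Cd207, which encodes langerin, and the controls had 8.85 to 11.49. The library labelled irradiated replicate 1 stood apart: it had 5.64 for Cd207, 6.52 for the MHC class II gene H2-Aa and 5.61 for the leukocyte gene Ptprc, against at least 13.27 and 9.30 for H2-Aa and Ptprc in the other irradiated samples. Its summed keratinocyte markers (10 of 10 on the array) reached a log2 level of 14.28, with 12.99 and 12.66 in irradiated replicates 2 and 3, and 11.50 to 13.66 in the controls. The 6 Langerhans cell markers summed to a log2 level of 10.24 in it, against 15.10 and 15.13 in irradiated replicates 2 and 3 and a control range of 14.48 to 14.92, and results are therefore also given without this library. The female-specific transcript Xist was at 5.31 to 5.93 after irradiation and at 10.94 to 11.71 in controls, and the Y-linked gene Ddx3y at 6.67 to 8.71 after irradiation and 4.35 to 5.45 in controls, so that sex and irradiation cannot be told apart. The T cell gene Cd3e was at 6.78, 7.30 and 8.71 in the irradiated samples and no higher than 6.67 in any control, and the 5 T cell markers on the array summed to log2 levels of 9.47 to 10.70 after irradiation and 8.94 to 9.56 in controls. Irradiated replicate 1 also had the highest sums for 3 other lists. Its erythroid markers summed to a log2 level of 14.34, against 10.17 and 7.94 in irradiated replicates 2 and 3 and 8.54 to 10.03 in the controls. Its fibroblast markers summed to 13.99, with 11.52 and 9.65 in irradiated replicates 2 and 3 while the controls spanned 10.29 to 12.19, and its endothelial markers to 9.84, with 8.48 and 8.28 in irradiated replicates 2 and 3 while the controls spanned 8.31 to 8.51. The part of keratinocyte, fibroblast, endothelial, erythroid and T cell RNA in the histone values was not tested. Controls 1 and 4 carry a reference to an earlier database record in their labels, unlike the remaining 5 samples.

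Most clustered histone genes were lower in the irradiated cells, with the largest median difference in H2A and the smallest in H4. Of the 53 members bright enough to be tested, 28 fell and 0 rose, where a call is an adjusted p under 0.05 from limma over all 13053 genes tested. Of all genes tested 1.56% were called lower and 0.115% higher. The calls were 11 of 13 tested H2A genes, 7 of 16 H2B genes and 10 of 10 H3 genes, while none of 10 H4 and none of 4 H1 genes passed. At an unadjusted p under 0.05 limma gave 45 lower and 0 higher members, among them 12 H2A, 14 H2B, 10 H3, 6 H4 and 3 H1 genes, where 16.1% of all genes tested were lower at that p. With weighted arrays 8 H4 and 3 H1 genes passed the adjusted threshold, at a background of 20.3% of all genes called lower. That fit gave irradiated replicates 1, 2 and 3 weights of 0.19, 3.25 and 0.66, and the controls 0.40 to 2.79. The 9 members left untested had mean intensities among the lowest 40% of symbols, below 67.3.

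The log2 fold change, irradiated minus control, was negative for 61 of 62 members, and 36 members were at least 2-fold lower. Its median was -1.29 over the 62 members and 0.06 over all 21755 symbols. By class the median was -1.61 for H2A, -1.39 for H3, -1.18 for H2B, -0.91 for H1 and -0.56 for H4. In 54 of 62 members every irradiated sample lay below every control, 8 members overlapped, and none lay the other way, whereas 10.0% of all symbols were separated downward and 4.83% upward. The separated members were 14 H2A, 16 H2B, 12 H3, 9 H4 and 3 H1 genes.

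**Figure D1:**
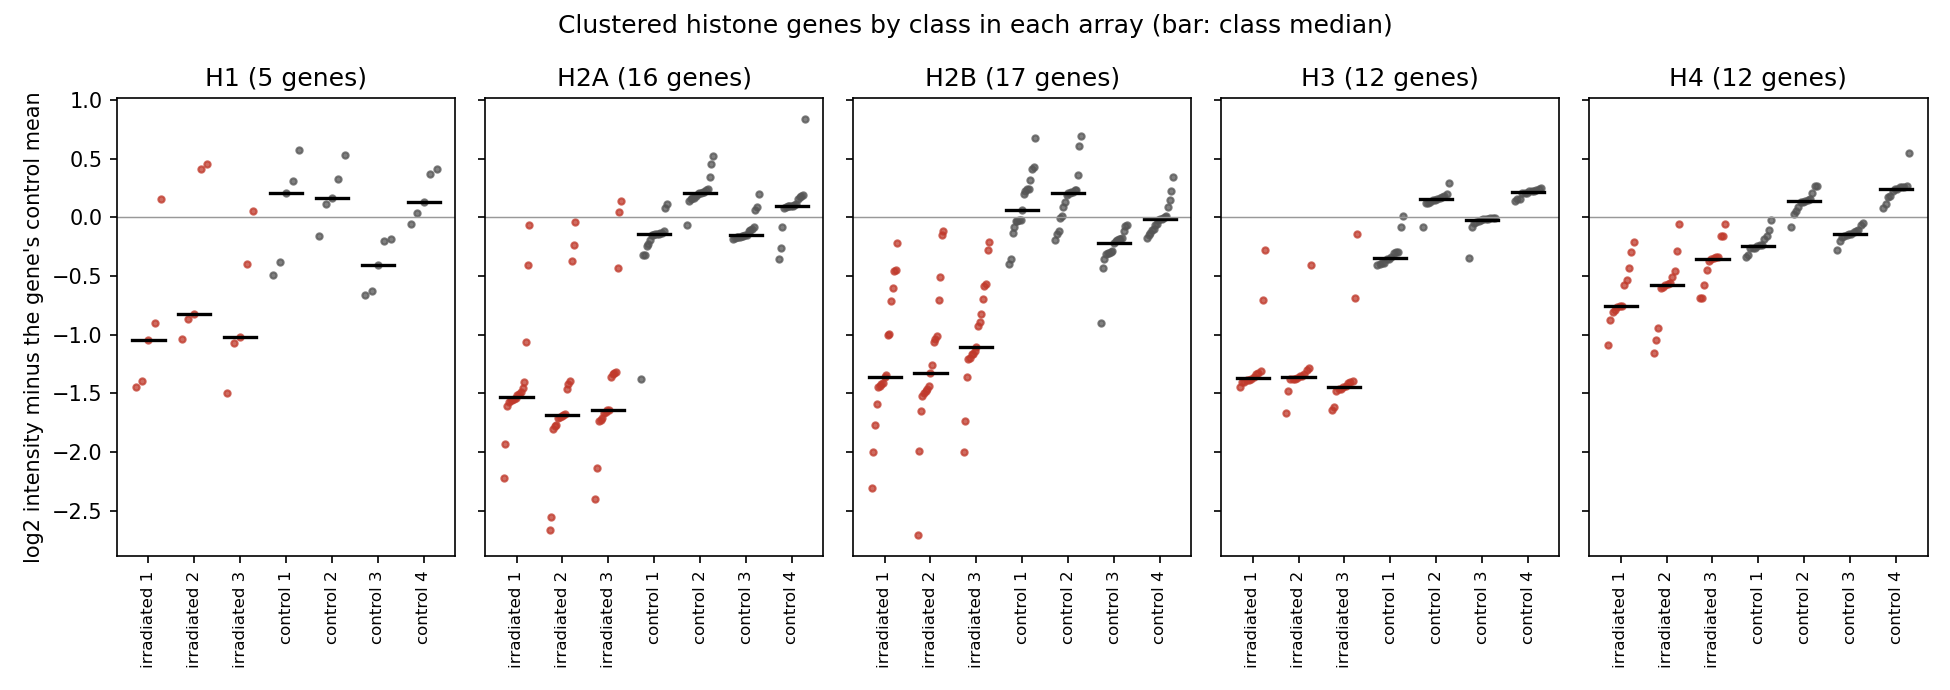
Each point is 1 histone gene on 1 array, drawn as its log2 intensity minus its mean over the 4 controls, with 1 panel per histone class, irradiated arrays left of controls and a bar at the class median. The H2A, H2B and H3 medians of the irradiated arrays sit at or below -1.11, and the H4 medians lie between -0.75 and -0.35.

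The median of each of the 5 classes was lower in every irradiated library than in any control. Measured from each gene's control mean, the H2A median was -1.53, -1.69 and -1.64 in irradiated replicates 1, 2 and 3, against -0.15 to 0.20 in the controls. For H3 the medians were -1.37, -1.36 and -1.44 in the irradiated samples while the controls spanned -0.34 to 0.22. For H2B they were -1.36, -1.33 and -1.11 in the irradiated samples while the controls spanned -0.22 to 0.21. The library without Langerhans cell markers thus had histone levels close to those of the other irradiated samples in these classes. For H4 the medians were -0.75, -0.57 and -0.35 in the irradiated samples while the controls spanned -0.24 to 0.24, a narrower gap. For H1 they were -1.04, -0.82 and -1.02 in the irradiated samples, and the controls lay between -0.41 and 0.21. The difference between H4 and the other classes was not tested.

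Without irradiated replicate 1, 31 members fell and 0 rose, at a background of 3.06% lower and 1.58% higher among all genes tested, and all 28 members called with every array were among them. The added members were the H2B genes Hist1h2ba, Hist1h2bh and Hist2h2bb. The medians were then -1.27 over all members, -1.66 for H2A, -1.40 for H3, -1.27 for H2B, -0.92 for H1 and -0.47 for H4. The count depended on single libraries: it was 0 without irradiated replicate 2 and 0 without control 4, 4 without control 2, 14 without control 3 and 15 without irradiated replicate 3, with 41 to 46 members at an unadjusted p under 0.05 in each of these fits, where at most 17.1% of all genes tested were lower at that p. It was also 0 with the earlier record as a term and 0 against controls 2 and 3 alone, which cite no record. These fits had 39 and 43 members at an unadjusted p under 0.05 and median log2 fold changes of -1.29 and -1.29. Both fits estimate the fold change from irradiated samples against controls 2 and 3, because only controls 1 and 4 cite a record. Their medians are therefore equal by construction. Of all genes tested 10.8% and 12.0% were lower at that p in these fits. In bulk samples such as these, fewer dividing cells and less histone RNA in each cell cannot be told apart, and the 7 arrays limit the precision of every comparison.

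**Figure D2:**
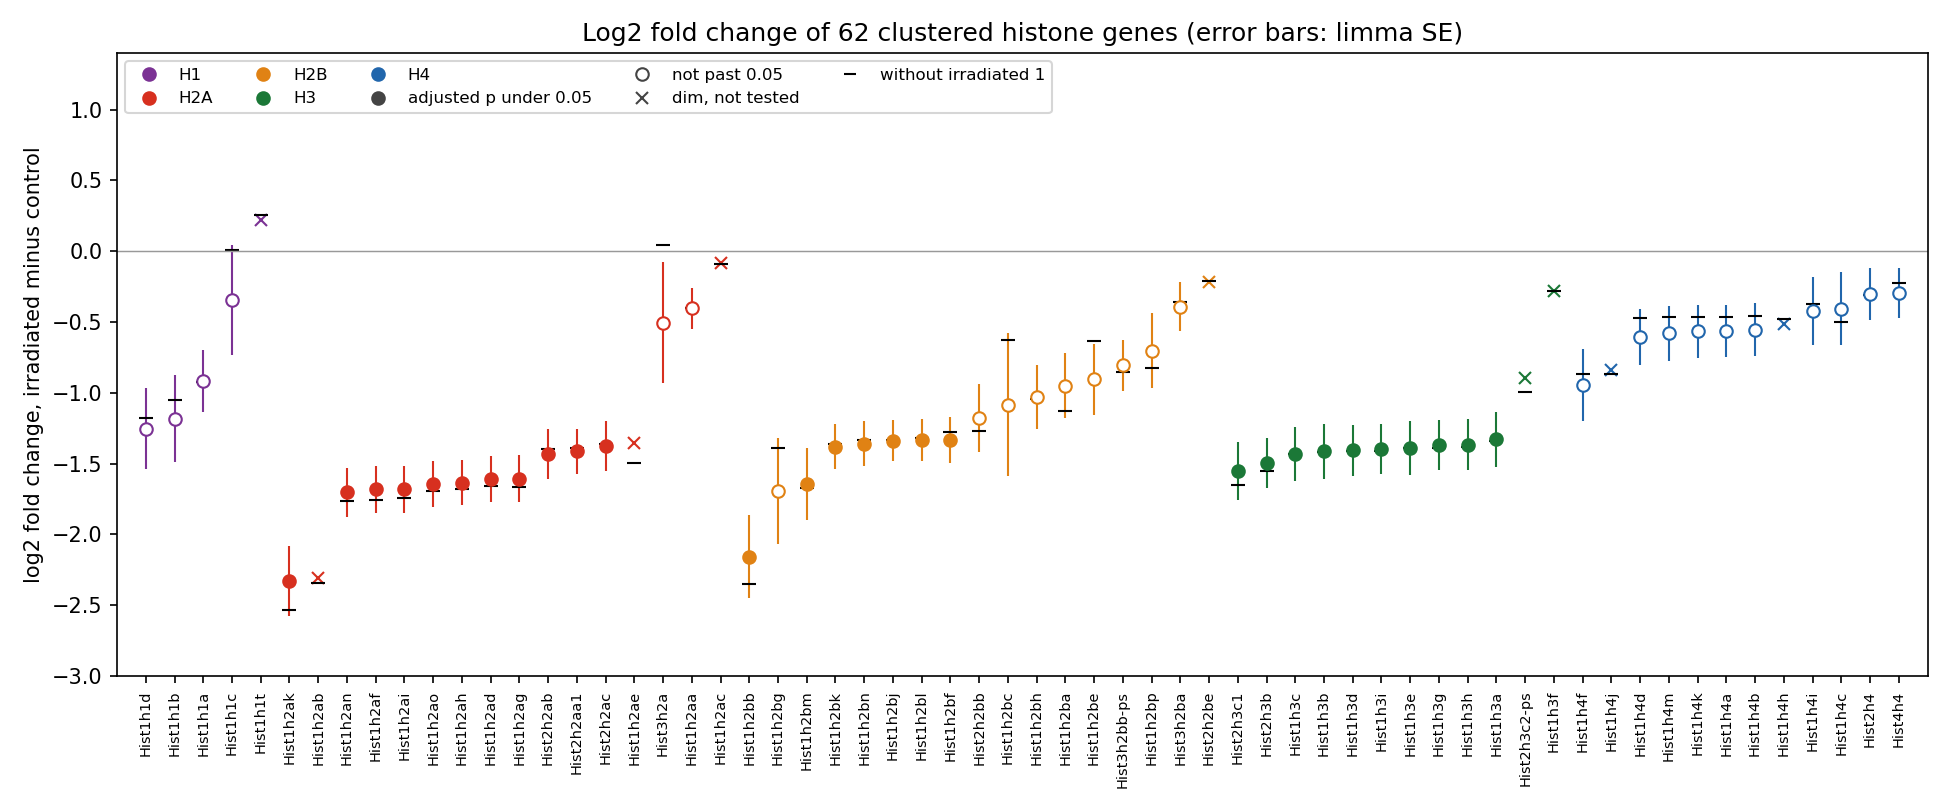
Log2 fold change, irradiated minus control, of each of the 62 histone genes by class, with the standard error where the gene was tested and filled points for an adjusted p under 0.05. All 10 tested H3 genes are filled and lie between -1.55 and -1.33, while no H4 gene is filled.

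H2A genes had the deepest class median, and among the members called Hist1h2ak fell the most. Hist1h2ak, which encodes a core H2A, had log2 intensities of 9.40, 8.66 and 8.93 in the irradiated samples, against 11.17, 11.56, 11.16 and 11.42 in the controls. The highest irradiated value stayed below the lowest control by more than the range of either group. The log2 fold change was -2.33 (SE 0.25, adjusted p = 0.010), or 5.03-fold lower. Hist1h2an had 10.85, 10.62 and 10.70 in the irradiated samples and 12.28, 12.67, 12.24 and 12.50 in the controls, a log2 fold change of -1.70 (SE 0.17, limma adjusted p = 0.0098). Hist1h2ao had 11.02, 10.86 and 10.90 in the irradiated samples and 12.43, 12.78, 12.40 and 12.67 in the controls, and fell by 1.64 on the log2 scale (SE 0.16). The 7 Hist1 H2A genes called besides Hist1h2ak all had log2 fold changes between -1.70 and -1.61.

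The 3 H2A genes of Hist2 fell too, with log2 fold changes of -1.43 to -1.38. Hist2h2aa1 had 11.05, 11.08 and 11.14 in the irradiated samples and 12.27, 12.64, 12.42 and 12.68 in the controls (log2 fold change -1.41, SE 0.16, adjusted p = 0.013), and its 4 probe sets gave log2 fold changes between -1.42 and -1.30. Its irradiated values spanned less than 0.1 on the log2 scale, with an SD of 0.047 against 0.19 in the controls. Hist1h2ab, too dim for the test, had values of 4.65, 4.33 and 4.74 in the irradiated samples and 5.50, 7.33, 6.97 and 7.72 in the controls. Its control values had an SD of 0.97, against 0.19 to 0.20 for Hist1h2ak, Hist1h2an and Hist1h2ao.

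The other 2 tested H2A genes did not pass. Hist1h2aa, the testis-type H2A gene, had 7.42, 7.45 and 7.39 in the irradiated samples and 7.90, 7.97, 7.67 and 7.73 in the controls, with a log2 fold change of -0.40 (adjusted p = 0.19). Hist3h2a, the H2A gene of Hist3, had 8.66, 10.23 and 10.41 in the irradiated samples and 9.95, 10.21, 10.47 and 10.46 in the controls. Only the library labelled irradiated replicate 1 was low, and replicates 2 and 3 lay within the control range. The log2 fold change was -0.50 (SE 0.43, adjusted p = 0.53) with that library and 0.05 without it (adjusted p = 0.94), and a second Hist3h2a probe set gave -0.30 and 0.05.

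H2B genes differed among themselves, and 7 of 16 tested fell. Hist1h2bb, a core H2B gene, had 8.29, 7.35 and 8.06 in the irradiated samples and 9.92, 10.42, 9.75 and 10.14 in the controls. All irradiated values lay below all controls, and the log2 fold change was -2.16 (SE 0.29, adjusted p = 0.017), or 4.46-fold lower. Hist1h2bm had 9.56, 9.16 and 9.79 in the irradiated samples and 11.39, 11.36, 10.79 and 11.05 in the controls (log2 fold change -1.65, SE 0.25, adjusted p = 0.027). The other 5 H2B genes called had nearly equal changes, with log2 fold changes of -1.38 to -1.33. Of these Hist1h2bj had 11.70, 11.58 and 11.84 in the irradiated samples and 13.03, 13.26, 12.85 and 13.05 in the controls, a 2.53-fold difference. Hist1h2bl had 11.61, 11.49 and 11.80 in the irradiated samples and 12.95, 13.18, 12.79 and 12.96 in the controls, a 2.52-fold difference.

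The remaining 9 tested H2B genes had adjusted p-values of 0.058 to 0.28. Hist1h2bg had 6.63, 7.89 and 7.19 in the irradiated samples and 8.53, 9.54, 8.50 and 9.16 in the controls. The groups did not overlap and its log2 fold change was -1.69, but its spread was wide (SE 0.38, adjusted p = 0.071). Hist1h2bc had 9.71, 11.59 and 10.57 in the irradiated samples and 11.94, 12.40, 10.81 and 11.69 in the controls, and was the only H2B gene whose groups overlapped (log2 fold change -1.08, and -0.63 without irradiated replicate 1). Its irradiated samples differed from each other by more than the group means did. The testis-type H2B gene Hist1h2ba had 7.03, 6.30 and 6.70 in the irradiated samples and 8.05, 7.62, 7.34 and 7.49 in the controls (log2 fold change -0.95, adjusted p = 0.084, and 0.042 without irradiated replicate 1).

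The Hist3 H2B genes had smaller differences than the H2B genes that were called. Hist3h2ba had 6.67, 6.63 and 6.92 in the irradiated samples and 7.55, 6.99, 7.02 and 6.98 in the controls, with a log2 fold change of -0.39 (SE 0.17, limma adjusted p = 0.26). Hist3h2bb-ps, annotated as a pseudogene, had 7.19, 6.89 and 7.21 in the irradiated samples and 8.22, 7.91, 7.68 and 7.79 in the controls, with a log2 fold change of -0.80 (SE 0.18, limma adjusted p = 0.073). Neither group of samples overlapped the other in these genes, and neither gene passed the threshold.

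All 10 tested H3 genes fell, by similar amounts, with log2 fold changes between -1.55 and -1.33 and adjusted p-values of 0.014 to 0.021. Hist2h3c1, an H3 gene of Hist2, had 10.63, 10.32 and 10.35 in the irradiated samples and 11.63, 12.14, 11.97 and 12.19 in the controls, and was 2.94-fold lower (log2 fold change -1.55, SE 0.20). Hist2h3b of the same cluster had 10.98, 10.89 and 10.75 in the irradiated samples and 12.08, 12.55, 12.32 and 12.53 in the controls (log2 fold change -1.50, SE 0.18). These 2 genes had the deepest falls of the class. Hist1h3b had 11.03, 11.06 and 10.98 in the irradiated samples and 12.03, 12.60, 12.43 and 12.68 in the controls (log2 fold change -1.41, SE 0.19, adjusted p = 0.017). Hist1h3d had 11.03, 11.06 and 10.99 in the irradiated samples and 12.07, 12.58, 12.41 and 12.67 in the controls, values almost equal to those of Hist1h3b on every array. Its second, dimmer probe set gave a log2 fold change of -0.63, not -1.41. The 2 untested H3 genes, Hist1h3f and Hist2h3c2-ps, were dim, and had log2 fold changes of -0.28 and -0.90. The symbol Hist2h3c2-ps marks a pseudogene, whereas RefSeq lists the matched gene as protein-coding.

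The H4 genes were lower by less, and the limma fit called none of them. Hist1h4d had 11.85, 12.12 and 12.38 in the irradiated samples and 12.38, 12.93, 12.61 and 12.96 in the controls. The highest irradiated value met the lowest control, and the log2 fold change was -0.61 (SE 0.20, adjusted p = 0.16), or 1.52-fold lower. Hist1h4b had 11.58, 11.78 and 11.98 in the irradiated samples and 12.07, 12.49, 12.18 and 12.60 in the controls, a log2 fold change of -0.55 (SE 0.19, limma adjusted p = 0.17). Hist1h4a, Hist1h4k and Hist1h4m had log2 fold changes between -0.58 and -0.56. The SEs of the 10 tested H4 genes were 0.17 to 0.26, against 0.17 to 0.20 for the 10 tested H3 genes.

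Hist1h4f had the largest difference among the H4 genes, with 8.28, 8.21 and 8.79 in the irradiated samples and 9.05, 9.63, 9.20 and 9.59 in the controls (log2 fold change -0.94, adjusted p = 0.11). Hist4h4, the single gene of its cluster, had 8.01, 8.16 and 8.29 in the irradiated samples and 8.42, 8.54, 8.30 and 8.53 in the controls, and its log2 fold change of -0.30 (SE 0.17, adjusted p = 0.39) was the smallest of the tested H4 genes. Hist2h4 was close to it at -0.30 (adjusted p = 0.40), while the H2A and H3 genes called in the same cluster were at -1.55 to -1.38.

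The linker histone genes were not called in the limma fit, and one of them differed little. Hist1h1b, an H1 gene of dividing cells, had 7.36, 7.77 and 7.73 in the irradiated samples and 8.31, 9.33, 8.40 and 9.17 in the controls. Every irradiated value was below every control, with a log2 fold change of -1.18 (SE 0.31, limma adjusted p = 0.10). Hist1h1a and Hist1h1d were likewise separated, with log2 fold changes of -0.91 and -1.25 (adjusted p = 0.084 and 0.076). Hist1h1c, an H1 gene that is also transcribed in cells that do not divide, had 7.64, 9.09 and 8.28 in the irradiated samples and 8.88, 9.0, 8.02 and 8.81 in the controls. Its groups overlapped, and the log2 fold change was -0.34 (SE 0.39, adjusted p = 0.64) with all arrays and 0.01 without irradiated replicate 1. Hist1h1t, the testis H1 gene, was too dim to test and was the only member with a positive log2 fold change, 0.22.

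By cluster the calls were 23 of 42 tested genes of Hist1, 5 of 7 of Hist2, 0 of 3 of Hist3 and 0 of 1 of Hist4. The median log2 fold changes were -1.33, -1.38, -0.50 and -0.30 in that order of clusters. Of all genes tested 1.56% were called lower. The Hist3 median is the value of Hist3h2a, which was low only in irradiated replicate 1. Without that library the medians were -1.32, -1.36, -0.36 and -0.23 in the same order. The calls were then 25, 6, 0 and 0, at a background of 3.06% of all genes tested. At an unadjusted p under 0.05, limma gave 1 of the Hist3 genes, Hist3h2bb-ps, and not Hist4h4, where 16.1% of all genes tested were lower. Hist1 and Hist2 both hold H2A, H2B, H3 and H4 genes, whereas all members of Hist3 are H2A or H2B, and the difference between clusters was not tested.

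Many genes of a core histone class are nearly identical in coding sequence, so array probes can be shared between them. Members are therefore not independent measurements. Of the 70 probe sets of the 62 members, 26 pairs that name different genes of the same class lay within 0.1 of each other on the log2 scale on all 7 arrays, and no pair of different classes did. Linking such pairs left 8 groups that hold 25 probe sets, and 53 distinct signals. The counts depend on the limit: within 0.2 there were 69 pairs of the same class, 2 of different classes and 46 distinct signals, and within 0.3 there were 91, 19 and 43. The largest group joins 6 H3 probe sets (Hist1h3b, Hist1h3c, Hist1h3d, Hist1h3g, Hist1h3h and Hist1h3i), and the next joins 5 H2A probe sets. Counted by signal instead of by gene, 16 of 39 tested signals fell: 6 of 8 for H2A, 5 of 14 for H2B, 5 of 5 for H3, 0 of 8 for H4 and 0 of 4 for H1. Of the 31 tested members with a signal of their own 10 fell, and 13 without irradiated replicate 1. Hist1h2ak, Hist1h2bb, Hist1h2bm, Hist2h3b and Hist2h3c1 are among those 10. The counts of calls by signal hold for the limit of 0.1, and were not made at wider limits. Hist2h3b misses that limit narrowly: its widest gap from Hist1h3g was in irradiated replicate 3, at 10.75 against 10.87.

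**Figure D3:**
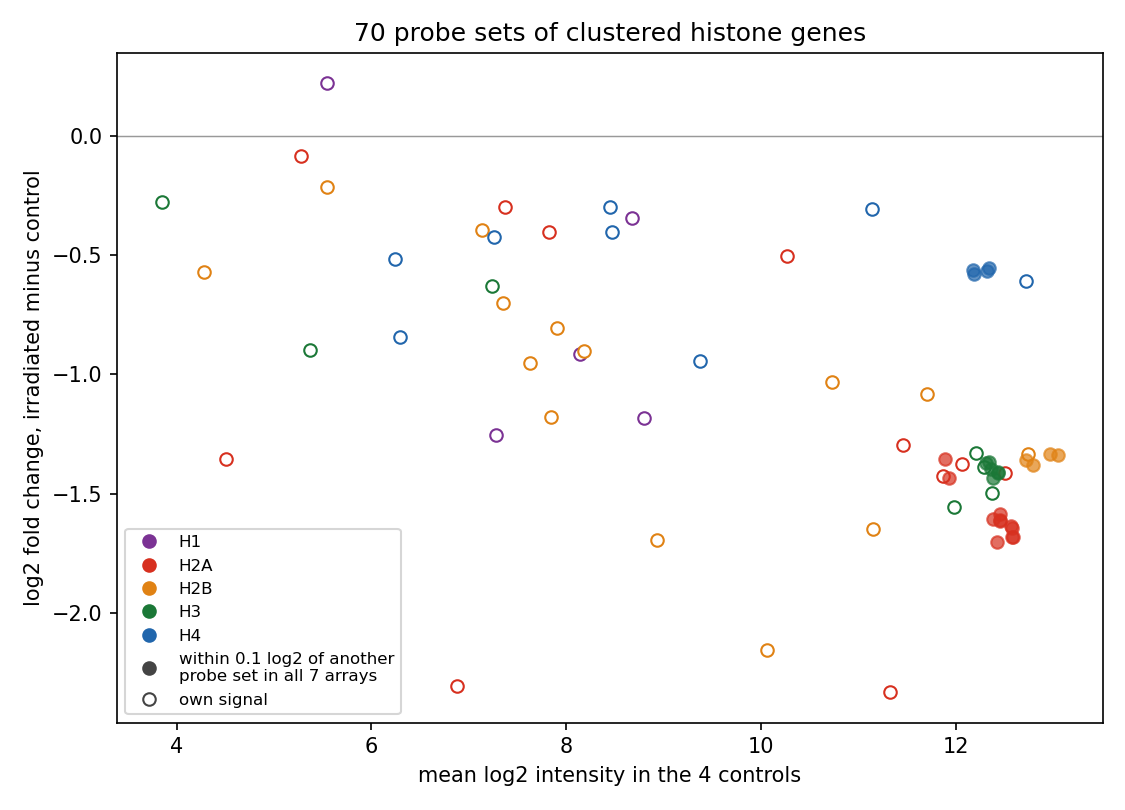
Log2 fold change, irradiated minus control, of each of the 70 histone probe sets against its mean log2 intensity in the 4 controls, coloured by class, with filled points for a signal within 0.1 of another probe set of the same class on all 7 arrays. The filled points form tight groups by class, and probe sets with a signal of their own reach from -2.33 to 0.22.

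The promoter sequences are shown for 1 or 2 members of each class so that their elements can be read beside the changes above. RefSeq windows of 300 bases, 250 before and 50 after the start of the gene, were at hand for 56 of the 62 members. Each line runs 5′ to 3′ on the strand of the gene in build GRCm38.p6. Capitals mark a match to CCAAT (the CCAAT box, bound by NF-Y), TATAAA (the TATA box), ATTTGCAT (the octamer, bound by Oct-1), AAACACA (the H1 box) or GGTCCG (the core of the H4 subtype element) on either strand. ATTGG is the CCAAT box read on the other strand, and no motif contains another. The motifs were chosen after the sequences had been seen.
Hist1h1b (H1, chr13:21780576-21780875, minus strand): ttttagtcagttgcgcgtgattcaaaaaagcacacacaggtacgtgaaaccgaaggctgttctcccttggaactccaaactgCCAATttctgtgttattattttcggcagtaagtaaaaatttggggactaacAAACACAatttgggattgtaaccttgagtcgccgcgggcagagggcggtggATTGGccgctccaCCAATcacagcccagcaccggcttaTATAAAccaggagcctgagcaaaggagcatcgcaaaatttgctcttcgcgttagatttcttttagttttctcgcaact
Hist1h2ak (H2A, chr13:21753863-21754162, minus strand): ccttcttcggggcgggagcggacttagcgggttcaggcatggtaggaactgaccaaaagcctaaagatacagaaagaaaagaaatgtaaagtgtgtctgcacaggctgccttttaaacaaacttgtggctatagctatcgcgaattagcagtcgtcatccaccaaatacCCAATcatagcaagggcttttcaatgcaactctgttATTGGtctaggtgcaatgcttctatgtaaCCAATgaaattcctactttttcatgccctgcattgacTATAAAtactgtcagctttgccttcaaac
Hist1h2bb (H2B, chr13:23746484-23746783, plus strand): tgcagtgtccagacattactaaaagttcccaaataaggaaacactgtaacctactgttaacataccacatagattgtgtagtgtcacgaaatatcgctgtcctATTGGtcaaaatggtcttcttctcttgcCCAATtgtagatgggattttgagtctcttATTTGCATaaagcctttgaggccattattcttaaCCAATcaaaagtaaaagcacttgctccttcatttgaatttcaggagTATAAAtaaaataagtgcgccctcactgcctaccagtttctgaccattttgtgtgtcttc
Hist1h3b (H3, chr13:23752095-23752394, plus strand): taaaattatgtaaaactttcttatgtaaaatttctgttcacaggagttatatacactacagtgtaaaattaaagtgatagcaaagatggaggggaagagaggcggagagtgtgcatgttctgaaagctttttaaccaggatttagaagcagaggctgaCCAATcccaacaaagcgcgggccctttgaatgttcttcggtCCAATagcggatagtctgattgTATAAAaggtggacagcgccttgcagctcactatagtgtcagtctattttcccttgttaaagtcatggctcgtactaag
Hist1h4b (H4, chr13:23756687-23756986, plus strand): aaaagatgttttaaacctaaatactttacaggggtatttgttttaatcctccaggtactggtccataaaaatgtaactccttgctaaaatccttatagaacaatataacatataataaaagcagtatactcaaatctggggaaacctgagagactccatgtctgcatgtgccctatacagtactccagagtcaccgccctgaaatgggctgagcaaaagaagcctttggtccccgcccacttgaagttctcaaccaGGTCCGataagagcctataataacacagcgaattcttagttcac
Hist1h4d (H4, chr13:23581318-23581617, plus strand): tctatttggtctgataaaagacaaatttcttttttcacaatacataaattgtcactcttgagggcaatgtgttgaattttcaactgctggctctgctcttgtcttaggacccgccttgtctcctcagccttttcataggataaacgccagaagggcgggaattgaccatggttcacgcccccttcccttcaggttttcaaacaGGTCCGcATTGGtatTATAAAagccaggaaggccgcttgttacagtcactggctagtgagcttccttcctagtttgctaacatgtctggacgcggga

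Matches differed by class, and most between H4 and the rest. A CCAAT match was present in 45 of 45 windows of H1, H2A, H2B and H3 genes and in 3 of 11 H4 windows, against 37.4% of all 32851 mouse promoter windows of that length. GGTCCG was found in 10 of 11 H4 windows, in 2 of 45 windows of the other classes and in 8.25% of all windows. Hist1h4b has GGTCCG without a CCAAT or TATA box, and Hist1h4d has GGTCCG with both boxes just after it. The octamer was present in 7 of 16 H2A and 7 of 14 H2B windows, in none of the other classes and in 1.74% of all windows, and AAACACA in 4 of 5 H1, 2 of 16 H2A and 2 of 14 H2B windows, none of H3 and H4 and 7.18% of all. TATAAA was present in 33 of 56 members and 13.6% of all windows. A match describes letters in the window and shows no binding.

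Some H2A and H2B genes stand head to head and share a promoter region. In 8 such pairs the windows overlapped by 220 to 279 bases. Both genes fell in 5 pairs, 1 gene fell in 1 pair and neither was called in 2 pairs. In the 5 pairs, Hist1h2ad, Hist1h2ag, Hist1h2ah and Hist1h2ai had signals nearly equal to those of other H2A genes. Hist1h2bj, Hist1h2bk, Hist1h2bl and Hist1h2bn had signals nearly equal to those of other H2B genes. The pairs are therefore not independent measurements. Among all members 11 of 13 tested H2A and 7 of 16 tested H2B genes were called. Of the pairs without a call, one holds Hist1h2ae, too dim to test, and Hist1h2bg, with log2 fold changes of -1.35 and -1.69. Hist1h2ak and Hist1h2bn, which share 263 bases, had log2 fold changes of -2.33 and -1.36. Hist1h2an fell with a log2 fold change of -1.70, while its partner Hist1h2bp, at -0.70, did not pass (adjusted p = 0.21).

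The replacement histone genes, which lie outside the clusters, gave no call in either direction: limma called 0 of 10 tested. At an unadjusted p under 0.05 limma gave 5 of them lower, where 16.1% of all genes tested were lower. The median log2 fold change of the list was -0.52 over 11 genes, and -0.16 without irradiated replicate 1. H3f3b, which encodes H3.3, had 10.31, 11.77 and 11.43 in the irradiated samples and 11.72, 11.60, 11.17 and 11.49 in the controls, and only the library labelled irradiated replicate 1 was low. Its log2 fold change was -0.33 (adjusted p = 0.62), and 0.11 without that library. H2afz, which encodes H2A.Z, had 8.52, 10.53 and 10.91 in the irradiated samples and 10.80, 10.76, 10.87 and 10.64 in the controls, again with irradiated replicate 1 alone far below the rest (log2 fold change -0.78, and -0.05 without it). H2afx, which encodes the H2A.X that is phosphorylated at DNA breaks and is also made in S phase, had 6.79, 6.32 and 6.46 in the irradiated samples and 7.74, 7.94, 7.01 and 7.39 in the controls. Its groups did not overlap, and it had a log2 fold change of -0.997 (SE 0.24, limma adjusted p = 0.083).

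Of 15 tested genes for histone transcription and mRNA processing 1 fell, and the median log2 fold change of the 19 listed was -0.09. Among all genes tested 1.56% were called lower. At an unadjusted p under 0.05 limma gave 2 of the 15 lower, against 16.1% of all genes tested. Cpsf3, the nuclease that cuts histone pre-mRNA and also the pre-mRNAs of other genes, had 7.27, 7.31 and 7.77 in the irradiated samples and 9.09, 8.72, 8.69 and 8.60 in the controls (log2 fold change -1.33, SE 0.21, adjusted p = 0.031). Slbp, the stem-loop binding protein, had 7.43, 6.75 and 7.04 in the irradiated samples and 7.42, 7.002, 6.98 and 6.67 in the controls. Its groups overlapped, and its log2 fold change was 0.06 (adjusted p = 0.90) with all arrays and -0.12 without irradiated replicate 1. Averaged over all Slbp probe sets, the log2 fold change was -0.28. Npat, the coactivator of histone genes, had 5.95, 6.21 and 6.49 in the irradiated samples and 6.49, 6.51, 6.47 and 6.94 in the controls, with a log2 fold change of -0.39 (adjusted p = 0.27).

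Among histone chaperones 1 of 23 tested genes fell, where 1.56% of all genes tested were called lower. At an unadjusted p under 0.05 limma gave 6 of the 23 lower, against 16.1% of all genes tested. Asf1b, the chaperone of new H3 and H4 in proliferating cells, had 7.19, 6.89 and 6.55 in the irradiated samples and 8.33, 8.98, 8.56 and 8.57 in the controls (log2 fold change -1.74, SE 0.23, adjusted p = 0.016). The related Asf1a had a log2 fold change of -0.17 (adjusted p = 0.45). The median over the 27 chaperone genes was -0.36.

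The S phase list holds genes for DNA copying and for entry into S phase. It had 4 of 23 tested genes lower (Mcm3, Mcm6, Mcm7 and Rrm2) and a median log2 fold change of -0.59. Without irradiated replicate 1, 10 of the 23 tested S phase genes fell and the list median was -0.69. Of all genes tested 3.06% were called lower in that fit, against 1.56% with every array. Mcm7, a subunit of the replicative helicase, had 5.91, 6.16 and 6.36 in the irradiated samples and 7.06, 7.74, 7.33 and 7.49 in the controls (log2 fold change -1.26, adjusted p = 0.023). Pcna, the sliding clamp, had 9.11, 9.66 and 9.79 in the irradiated samples and 9.59, 9.94, 9.80 and 10.01 in the controls, with overlapping groups and a log2 fold change of -0.31 (adjusted p = 0.50). The G2 and mitosis list had 9 of 18 tested genes lower and a median of -1.40. Among its cyclin genes, Ccna2 had 6.65, 5.98 and 5.75 in the irradiated samples and 8.46, 9.40, 8.10 and 8.93 in the controls. The log2 fold change of Ccna2 was -2.60 (SE 0.35, limma adjusted p = 0.016).

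**Figure D4:**
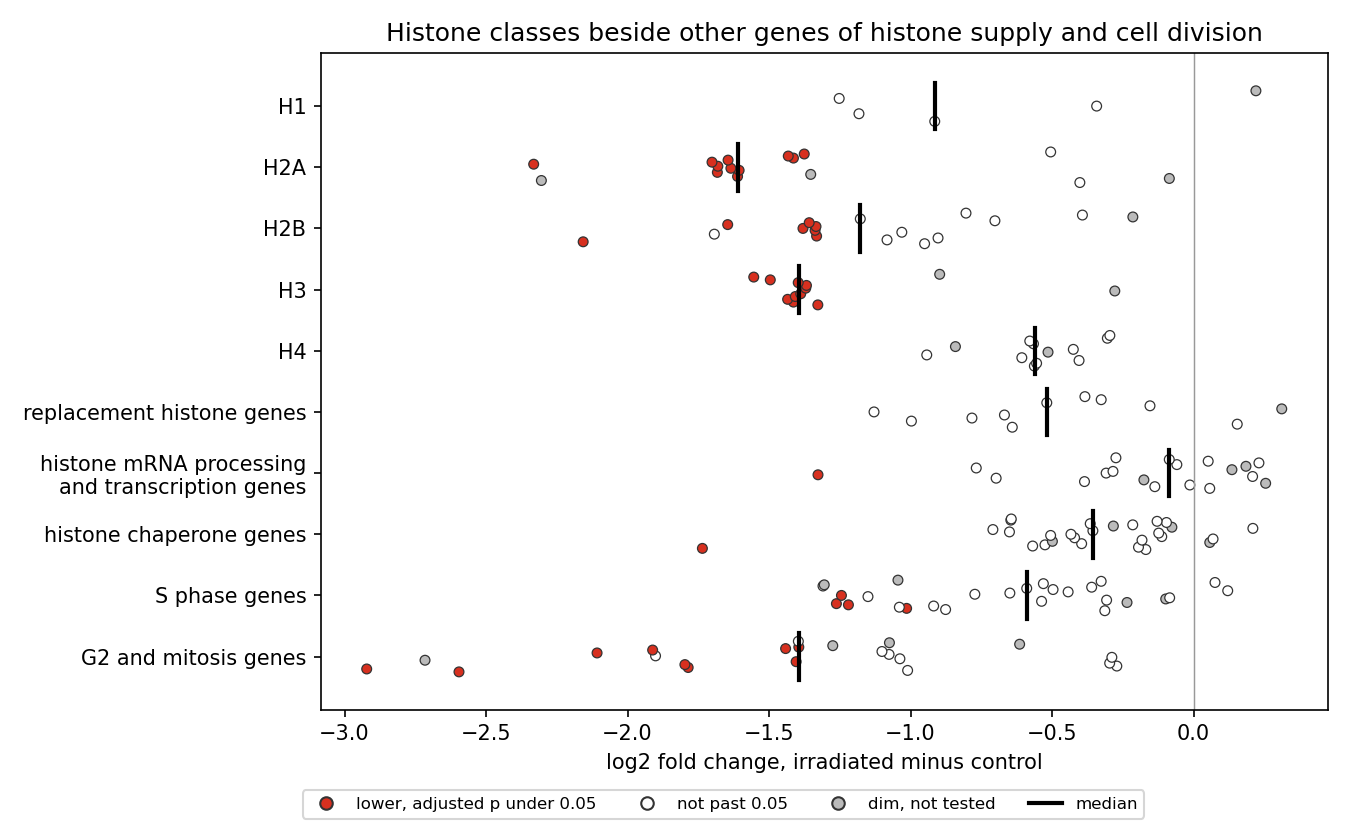
Log2 fold change, irradiated minus control, of each gene of the 5 histone classes and of 5 lists of related genes, with a black bar at the median of each row. The medians are -1.61 for H2A, -1.39 for H3 and -1.18 for H2B, beside -1.40 for the G2 and mitosis genes. With every array the H4 median is -0.56, that of the S phase genes -0.59 and that of the replacement histone genes -0.52. Without irradiated replicate 1, which is not drawn, they were -0.47, -0.69 and -0.16 in that order.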

How the data were processed

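RNA of 3 irradiated and 4 control samples was measured on 1 array each. The authors deposited 1 intensity per probe set and array, and the submitters' processing notes name RMA, robust multi-array averaging, as the method. The values are on a linear scale, and neither array design nor genome build is given in the sources used here. The log2 of each intensity was taken, and each symbol was represented by its probe set with the highest mean over the 7 arrays.

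Symbols were compared, irradiated minus control, with limma 3.58.1 in R 4.3.3 (lmFit, eBayes with a trend) after the lowest 40% by mean log2 intensity (below 6.07) had been left out, and p-values were adjusted by Benjamini-Hochberg over all 13053 genes tested. The fit was tested on simulated data. Class and list medians run over all members, tested or not. Values in every sample are given, by class, for the 2 genes with the highest mean and the 2 called with the largest fall, for clusters Hist3 and Hist4, and for a few members chosen after their values were seen (Hist1h2aa, Hist1h2ab, Hist1h2ba, Hist1h2bc, Hist1h2bg and Hist1h4f). From each list of other genes, up to 3 called genes could be shown, or the highest if none was called, together with Slbp, Npat, H2afx, H2afz, H3f3b, Pcna and Ccna2. The members and lists were chosen with earlier results of these data known.

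The alternatives were other filters, variance models, array weights, normalisations, probe set rules and sample subsets. Same-numbered irradiated and control samples had correlations of 0.02, -0.05 and 0.17 in their deviations from the group means, so the numbers were not taken to pair samples. Promoter windows came from RefSeq (GRCm38.p6), matched by symbol.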

Additional observations from a re-analysis of the deposited data

Results flagged for a closer look

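In 2 of 39 sets of 4 control values, 1 control stood farther from the others than Dixon's critical value allows, and chance alone gives about 1 in 20. Hist3h2ba was at a log2 intensity of 7.55 in control replicate 1, while the other controls were at 6.98 to 7.02 and the irradiated samples at 6.63 to 6.92. Npat was at 6.94 in control replicate 4, while the other controls were at 6.47 to 6.51 and the irradiated samples at 5.95 to 6.49.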

How the results depend on the processing

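The count of 28 histone genes lower was 27 to 29 under the other filters, variance models, normalisations, probe set rule, pseudocount and value table, and 47 with array weights (3 H1, 12 H2A, 14 H2B, 10 H3 and 8 H4), where 2645 of 13053 genes were called lower. It was 0, in total and for H2A, H2B and H3 alike, with the replicate block, with the earlier record as a term, against controls 2 and 3 only, and for controls 2 and 3 against irradiated 2 and 3. In those 4 fits 39 to 43 members were lower at an unadjusted p under 0.05, beside 10.8% to 15.6% of all genes tested, and at most 1 gene of all tested was called. Leaving out 1 sample gave 0 to 31 members lower (H2A 0 to 11, H2B 0 to 10, H3 0 to 10, H4 0, H1 0). No setting called a member higher. The median log2 fold change stayed between -1.41 and -1.08 over all settings, and H4 between -0.66 and -0.26. The sign changed for Hist1h1c with array weights (0.18), for controls 2 and 3 against irradiated 2 and 3 (0.18) and without irradiated replicate 1 (0.0073), for Hist3h2a without irradiated replicate 1 (0.047), and for H3f3b in the same 3 settings (0.17, 0.22 and 0.11). Slbp turned negative with array weights (-0.12), the mean of all probe sets (-0.28), the replicate block (-0.059), controls 2 and 3 against irradiated 2 and 3 (-0.094), and without irradiated replicate 1 (-0.12) or control replicate 4 (-0.059). The cause of these changes was not tested, though the fits with fewer samples or an added term also have fewer residual degrees of freedom (2 with the block, 4 with the record, 5 with all samples). Leaving out 1 sample at a time moved Hist1h1c between -0.72 and 0.0073, Hist3h2a between -0.83 and 0.047, H3f3b between -0.63 and 0.11 and Slbp between -0.12 and 0.22. With 7 arrays, H4 differences passed the threshold only with array weights among the settings tried.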
